A study of Mus musculus with 2 samples.

Results

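Signalling by the vascular endothelial growth factors and the angiopoietins was described in mouse synovium through 10 genes, taken by their symbols from the 32285 gene rows of the deposited matrices. They are the growth factors Vegfa, Vegfb, Vegfc and Pgf with their receptors Flt1, Kdr and Flt4, and the ligands Angpt1 and Angpt2 with their receptor Tek. All 10 were found and all 10 had UMIs in both libraries. Single cells came from knee synovium, the membrane around the joint space, of wild-type mice. One library came from mice labelled MMS, with the mark D14, and the other from mice labelled control; neither MMS nor D14 is explained in the labels. Each library pooled 20 knees that were minced and digested with Liberase and DNase, and no age, sex, strain or number of animals is given.

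In the vessel wall, growth factors of the VEGF family leave stromal cells and bind receptor tyrosine kinases on endothelial cells. Vegfa acts mainly through Kdr, the receptor that drives endothelial growth and permeability. Flt1 binds Vegfa, Vegfb and Pgf with little kinase output and can act as a trap, while Flt4 binds Vegfc and is known for the growth of lymphatic vessels. Angpt1 from perivascular and stromal cells activates Tek and keeps endothelium quiet. Angpt2, made by endothelium itself, competes with it and is known from vessels that are being remodelled.

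The receptors share a place of expression that the results below turn on, so the sequence just upstream of their start sites is shown beside that of the ligands Vegfa and Pgf, which were lower in the MMS fibroblasts. RefSeq promoters of GRCm38.p6 matched 8 of the 10 genes, in 10 windows, and each sequence below holds the 250 bases before the start, 5′ to 3′ on the gene's strand. In the receptor sequences capitals mark the ETS core GGAAG, or its reverse complement, the site of the ETS factors of endothelial cells. In the ligand sequences they mark the GC box GGGCGG or its reverse complement.
Flt1 (chr5:147726012-147726261, minus strand): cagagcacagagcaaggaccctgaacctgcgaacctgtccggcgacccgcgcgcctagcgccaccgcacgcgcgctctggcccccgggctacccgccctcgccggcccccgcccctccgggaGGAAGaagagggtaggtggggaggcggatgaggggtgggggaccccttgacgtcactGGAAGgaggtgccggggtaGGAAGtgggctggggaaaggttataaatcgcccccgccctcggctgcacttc
Kdr (chr5:75978456-75978705, minus strand): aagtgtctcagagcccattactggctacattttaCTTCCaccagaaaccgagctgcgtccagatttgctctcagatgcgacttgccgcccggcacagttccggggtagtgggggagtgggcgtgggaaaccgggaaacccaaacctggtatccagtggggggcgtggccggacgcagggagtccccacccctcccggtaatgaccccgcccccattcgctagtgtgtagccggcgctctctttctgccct
Tek (chr4:94739039-94739288, plus strand): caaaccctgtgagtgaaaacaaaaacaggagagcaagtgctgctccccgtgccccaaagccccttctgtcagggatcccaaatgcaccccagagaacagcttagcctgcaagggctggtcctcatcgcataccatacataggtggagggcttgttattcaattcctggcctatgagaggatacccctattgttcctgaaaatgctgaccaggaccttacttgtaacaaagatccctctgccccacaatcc
Vegfa (chr17:46032378-46032627, minus strand): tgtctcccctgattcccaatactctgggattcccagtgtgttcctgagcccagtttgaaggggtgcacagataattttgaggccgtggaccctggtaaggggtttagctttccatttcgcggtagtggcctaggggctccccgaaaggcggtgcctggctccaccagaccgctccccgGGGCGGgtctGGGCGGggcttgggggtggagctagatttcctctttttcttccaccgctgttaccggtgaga
Pgf (chr12:85177314-85177563, minus strand): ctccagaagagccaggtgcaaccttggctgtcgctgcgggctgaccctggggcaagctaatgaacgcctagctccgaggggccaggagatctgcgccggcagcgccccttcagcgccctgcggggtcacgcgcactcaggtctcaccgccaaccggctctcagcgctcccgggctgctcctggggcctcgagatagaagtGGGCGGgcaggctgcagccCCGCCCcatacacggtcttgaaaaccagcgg

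The ETS core was found 3 times upstream of Flt1, once upstream of Kdr and 0 times upstream of Tek, on either strand. It is a short motif, found in 64.1% of 32841 such windows over all genes. Both ligand windows shown had 2 GC boxes, and 32.7% of all windows have at least 1. Neither motif was particular to its group. The GC box was found 3 times for Flt1, 2 times for Kdr and 0 times for Tek. In the window of the other Pgf start it was found 0 times. The Vegfa window shown had 1 ETS core. The core of the hypoxia element, ACGTG or GCGTG, was found 0 times in the Vegfa window shown, 2 times in the window of the other Vegfa start, 1 time for Pgf and Flt1 and 2 times for Kdr, against 38.6% of all windows with a match. These matches describe letters in a window and were not tied to the levels below.

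After filtering and the removal of doublets, 3765 MMS and 6891 Control cells remained, with a median of 17444 UMIs in MMS cells and 10990 in Control cells. Cells were clustered without the 10 genes, and clusters were named from markers, so every class name below means cells like that type. Endothelial-like cells numbered 706 in the MMS library (18.8% of kept cells) and 1961 in the Control library (28.5%). Fibroblast-like cells numbered 1301 in the MMS library and 3199 in the Control library, and mural-like cells, the smooth muscle and pericytes around vessels, 181 and 144. The labels name the cells goblet cells, but 0 of 3765 MMS and 0 of 6891 Control cells held at least 2 of 8 goblet cell markers, which allows shares of up to 0.0797% and 0.0435%. The libraries shared 6 barcodes, 4 of them among kept cells. With 1 library per group there was no test of any difference: each value compares these libraries, its 95% interval covers counting error only, and the spread between animals cannot be told apart from the effect of the label. Levels are UMIs per 1000000 UMIs of the class (CPM), and log2 ratios are MMS over Control.

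Over all kept cells, the ligands of the stroma made up less of the MMS library. Vegfa stood at 30.4 CPM in MMS and 68.4 CPM in Control, a log2 ratio of -1.17 (interval -1.24 to -1.10). Angpt1 stood at 12.5 CPM in MMS and 41.1 CPM in Control, a log2 ratio of -1.71. Angpt2 went the other way, with 6.68 CPM in MMS and 4.72 CPM in Control (0.50, interval 0.31 to 0.70). The log2 ratio was 0.023 for Vegfb and between -0.34 and -0.87 for the other 6 genes. Such totals move both with the level in a cell and with the share of each cell class, which the values by class separate.

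**Figure D1:**
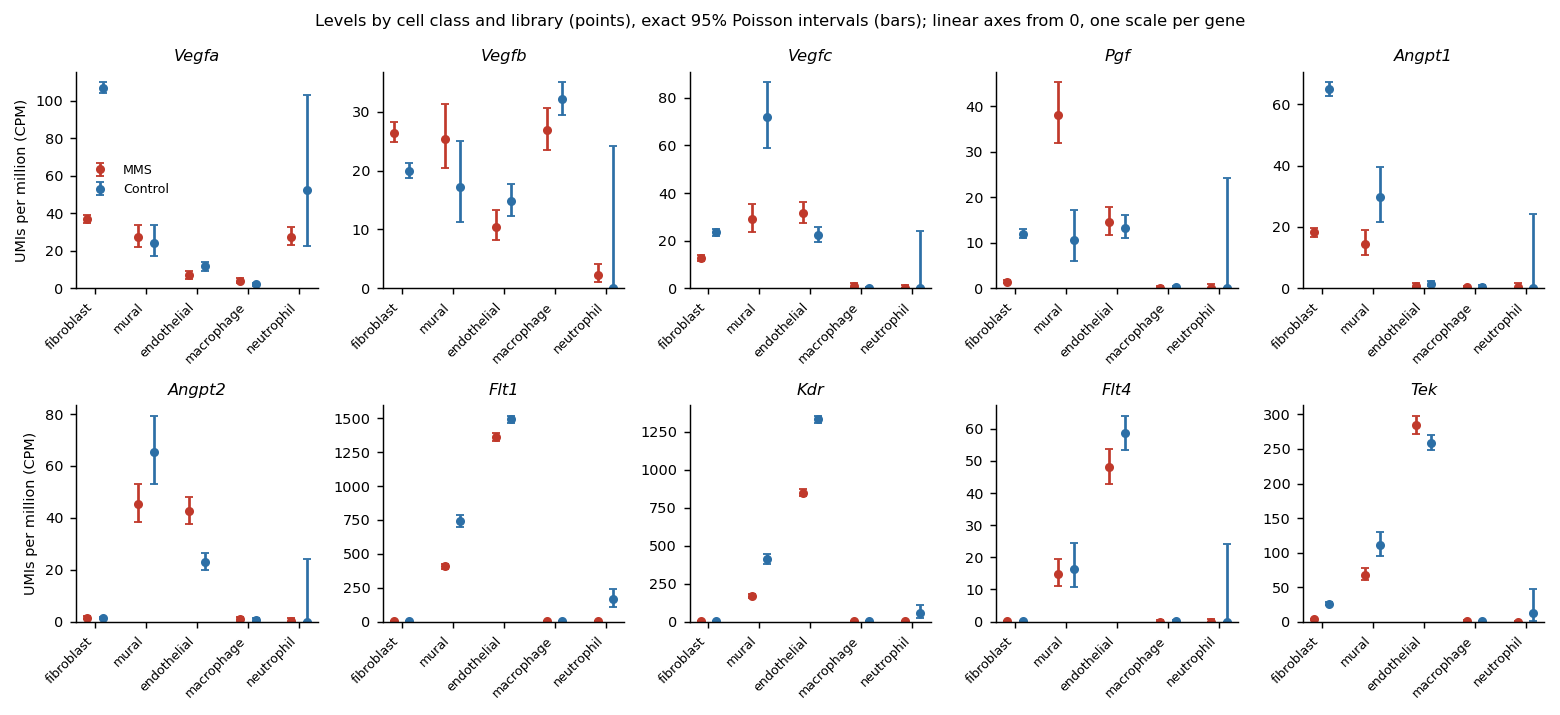
Level of each of the 10 genes in CPM (linear axes from 0, a scale of its own for each gene) in each of 5 cell classes, MMS in red to the left and Control in blue to the right, with exact 95% Poisson intervals. The 4 receptors peak in endothelial-like cells and Vegfa and Angpt1 are far higher in fibroblast-like than in endothelial-like cells.

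Vegfa (chr17:46016993-46032369, minus strand) was mainly a fibroblast product in the Control synovium. Fibroblast-like cells held 55.6% of its UMIs in the MMS library and 95.4% in the Control library. Its level there was 37.0 CPM (1320 UMIs) in MMS and 107 CPM (5108 UMIs) in Control, a log2 ratio of -1.53 (interval -1.62 to -1.45). The share of fibroblast-like cells with a Vegfa UMI was 38.9% in MMS and 53.6% in Control, although MMS cells were the deeper ones (median 27069 UMIs in MMS and 13754 in Control). Among T or NK-like cells, taken as the background of free RNA, 3.70% in MMS (1 of 27) and 7.25% in Control (5 of 69) had one, at median depths of 6649 and 5783 UMIs.

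The fibroblasts were then split into cells like the lining, which faces the joint space, and like the sublining beneath it. Lining-like cells were 47.1% of fibroblast-like cells in MMS (613 cells) and 10.97% in Control (351 cells). Vegfa stood at 10.5 CPM in MMS and 12.1 CPM in Control lining-like cells, a ratio whose interval held 0 (-0.21, interval -0.57 to 0.16). In sublining-like cells it stood at 76.1 CPM in MMS and 157 CPM in Control (-1.05, interval -1.15 to -0.95). The gene was thus low in the lining of both libraries, and lower in the MMS sublining than in the Control sublining. Weighting both sub-classes equally gave a log2 ratio of -0.97 in place of -1.53.

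Within the sublining, the libraries drew Vegfa from different sub-clusters. A sub-cluster led by Mmp13 and Lrrc15 held 52.2% of the fibroblast Vegfa UMIs in MMS (368 cells, 65.8 CPM) and 1.21% in Control (20 cells, 99.9 CPM). A sub-cluster led by Col6a5 and Lcn2 held 24.0% in MMS (143 cells, 128 CPM), with 1 cell in Control. In Control the largest stores were cells led by Pi16 and Stmn4 (26.0%, 559 cells) and cells led by Ccl11 and Fst (19.9%, 388 cells, 207 CPM). The MMS library had 11 cells of the Pi16 group and 0 of the Ccl11 group. A sub-cluster mostly from 1 library may be that library and not a type of cell.

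Outside the fibroblasts, Vegfa had sources in MMS that the Control library hardly held as cells. The unnamed cells led by Fmod, Acan and Spp1 numbered 380 in MMS and 4 in Control, and the MMS ones carried 20.4% of all Vegfa UMIs of their library at 40.6 CPM. Neutrophil-like cells numbered 258 in MMS and 22 in Control. Vegfa stood there at 27.4 CPM in MMS (125 UMIs, 64 cells with one) and 52.3 CPM in Control (8 UMIs in 4 cells). The log2 ratio was -0.93, with an interval that held 0 (-1.95 to 0.31). Adipocyte-like cells had 77.3 CPM in MMS (65 cells) and 102 CPM in Control (33 cells), with overlapping intervals. In macrophage or monocyte-like cells 3.09% in MMS and 1.83% in Control had a Vegfa UMI, at levels of 4.07 and 2.02 CPM (34 and 32 UMIs). These shares were at or below the T or NK-like ones. The T or NK-like shares rest on 1 MMS cell, which held 7 UMIs, and on 5 Control cells. The part of free RNA in the macrophage values was not tested.

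**Figure D2:**
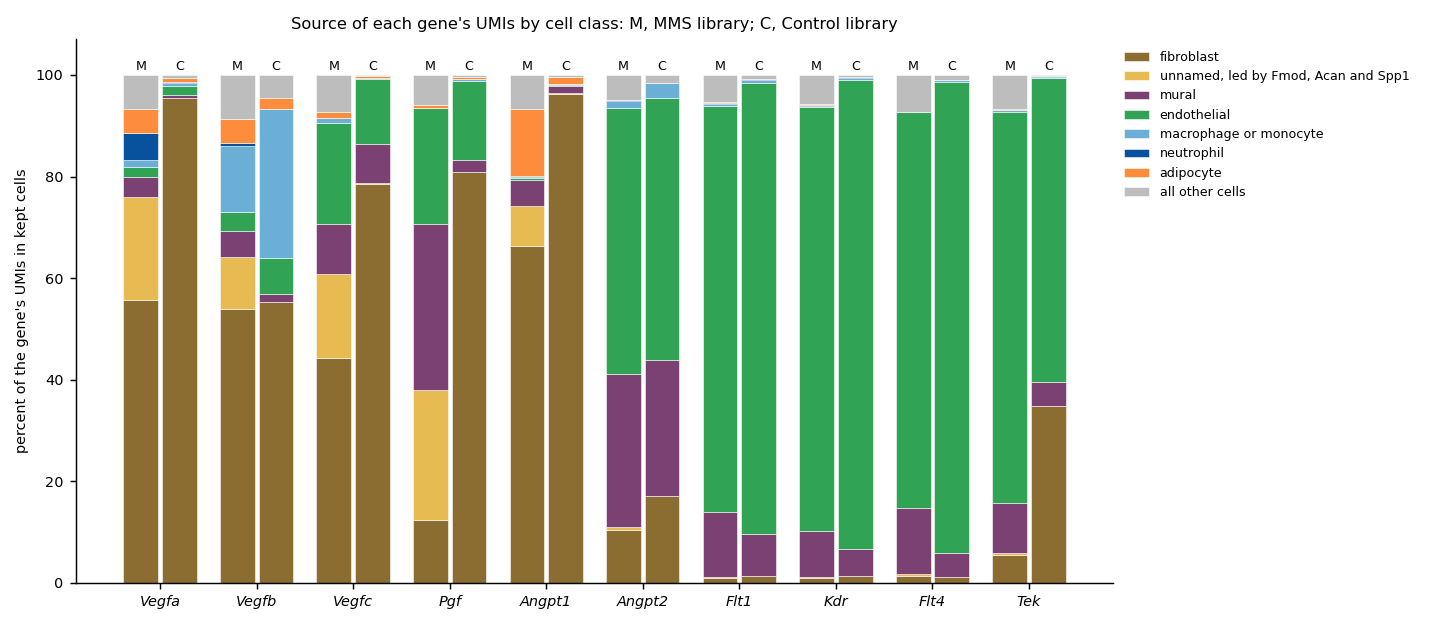
Percent of all UMIs of each gene contributed by each cell class, MMS (M) left of Control (C). Endothelial-like cells hold 77.0 to 83.5% of receptor UMIs in MMS, and fibroblast-like cells hold 55.6% of Vegfa in MMS and 95.4% in Control.

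Angpt1 (chr15:42424723-42676977, minus strand), the activating ligand of Tek, followed Vegfa in its sources. Fibroblast-like cells held 66.3% of its UMIs in MMS and 96.3% in Control. Their level was 18.2 CPM in MMS (649 UMIs, 24.5% of cells) and 64.9 CPM in Control (3096 UMIs, 48.2% of cells), a log2 ratio of -1.83 (interval -1.96 to -1.71). Both sub-classes were lower in MMS. The sublining had 41.8 CPM in MMS and 75.1 CPM in Control (-0.85, interval -0.98 to -0.72), and the lining 2.18 CPM in MMS and 8.94 CPM in Control (-2.04, interval -2.62 to -1.47). With both sub-classes weighted equally the ratio was -0.94. That value leaves out the unnamed sub-clusters and rests on 633 of the 649 MMS and 2166 of the 3096 Control UMIs. Lining-like cells too sat in different sub-clusters in each library: one led by Slpi and Prg4 held 393 of 613 MMS and 13 of 351 Control cells, and one led by Clic5 and Tspan15 held 14 MMS and 187 Control cells. In the MMS library the sub-cluster led by Col6a5 and Lcn2 held 40.5% of the fibroblast Angpt1 UMIs at 106 CPM. Adipocyte-like cells, few in both libraries, had 87.6 CPM in MMS and 109 CPM in Control.

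Pgf (chr12:85166635-85177790, minus strand), a ligand of Flt1, had a different main source in each library. In fibroblast-like cells it stood at 1.40 CPM in MMS (50 UMIs in 28 of 1301 cells) and 11.9 CPM in Control (568 UMIs in 309 of 3199 cells), a log2 ratio of -3.09 (interval -3.53 to -2.67). Fibroblast-like cells thus gave 12.3% of the Pgf of the MMS library and 80.9% of that of the Control library. In the sublining the ratio was -3.48, with 17 UMIs in MMS and 377 in Control. The Pi16 sub-cluster alone held 253 of the 568 Control UMIs, and 0 UMIs in its 11 MMS cells.

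Mural-like cells were the largest store of Pgf in the MMS library, with 32.6% of its UMIs. Pgf stood there at 38.2 CPM in MMS (132 UMIs, 45 of 181 cells) and 10.5 CPM in Control (16 UMIs, 9 of 144 cells), a log2 ratio of 1.86 (interval 1.10 to 2.71). The 10 fibroblast markers summed to 10149 CPM in MMS and 6325 CPM in Control mural-like cells, and the 8 markers of lining fibroblasts to 24738 CPM in MMS and 1634 CPM in Control. In the MMS library Pgf stood at 1.40 CPM in fibroblast-like cells. The unnamed Fmod, Acan and Spp1 cells stood at 8.73 CPM and gave another 25.7% of the MMS Pgf UMIs, 104 in 26 cells. The part of RNA from any of these cells in the mural ratio was not tested.

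In endothelium Pgf belonged to few cells. It had 93 UMIs in 19 of 706 MMS cells (14.5 CPM) and 110 UMIs in 19 of 1961 Control cells (13.3 CPM), and 1 cell held 21 of the MMS and 26 of the Control UMIs. A small sub-cluster with Prnd, Pgf, Ccl2 and Apln among its leading genes held 67.7% of these UMIs in MMS (16 cells, 211 CPM) and 66.4% in Control (18 cells, 503 CPM). Apln is known from sprouting endothelium. The sub-cluster stayed unnamed. It was made without Pgf but was picked for mention after its values were seen, so the level there is a description.

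Vegfc (chr8:54077606-54187096, plus strand), the ligand of Flt4, was spread over fibroblast-like, endothelial-like and mural-like cells. In fibroblast-like cells it stood at 12.5 CPM in MMS (447 UMIs) and 23.5 CPM in Control (1120 UMIs), a log2 ratio of -0.91 (interval -1.07 to -0.75). The lining had 4.95 CPM in MMS and 9.87 CPM in Control (interval -1.44 to -0.54), while the sublining had 23.5 CPM in MMS and 21.0 CPM in Control (0.16, interval -0.035 to 0.36). With both sub-classes weighted equally the ratio was -0.12, against -0.91 for the class as it stood. An unnamed sub-cluster, led by Slurp1 and Ltbp2, held 248 of the 1120 Control UMIs in 241 cells, and 2 UMIs in 13 MMS cells.

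In vessels, Vegfc was highest in the arterial-like endothelium, at 85.6 CPM in MMS (74 UMIs) and 87.4 CPM in Control (135 UMIs), which did not differ beyond counting error (-0.031, interval -0.46 to 0.39). The whole endothelial-like class had 31.4 CPM in MMS and 22.4 CPM in Control (0.49, interval 0.19 to 0.78), and 0.12 with the sub-classes weighted equally. Mural-like cells had 29.2 CPM in MMS (101 UMIs) and 71.8 CPM in Control (109 UMIs), a log2 ratio of -1.30 (interval -1.70 to -0.89). The ratio of Vegfc thus had opposite signs in endothelial-like and in mural-like cells.

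Vegfb (chr19:6982473-6987651, minus strand), a ligand of Flt1 linked to fatty acid uptake, was present in most classes, with little difference over all kept cells. Its level was 26.4 CPM in MMS and 20.0 CPM in Control fibroblast-like cells (0.40, interval 0.27 to 0.54). It was 26.9 CPM in MMS and 32.1 CPM in Control macrophage or monocyte-like cells (-0.25, interval -0.49 to -0.025), where the other ligands stood at 4.07 CPM or less. Adipocyte-like cells had the highest level in both libraries, 56.8 CPM in MMS and 84.9 CPM in Control. The fibroblast ratio was of one sign in lining (0.52) and sublining (0.40).

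Angpt2 (chr8:18690263-18741562, minus strand), the ligand that competes with Angpt1, was a product of the vessel wall. Endothelial-like cells held 52.4% of its UMIs in MMS and 51.5% in Control, and mural-like cells 30.1% in MMS and 26.8% in Control. In endothelial-like cells it stood at 42.7 CPM in MMS (273 UMIs, 91 cells) and 23.0 CPM in Control (190 UMIs, 138 cells), a log2 ratio of 0.89 (interval 0.62 to 1.17). One MMS cell held 59 of the 273 UMIs. Without the top cell of each library the ratio was 0.58.

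Most of the endothelial Angpt2 UMIs of the MMS library were in venular-like cells. They had 51.9 CPM in MMS (193 UMIs, 48 of 287 cells) and 19.8 CPM in Control (21 UMIs, 14 of 130 cells), a log2 ratio of 1.39 (interval 0.74 to 2.12), and 1.13 without the top cells. Capillary-like cells had 20.9 CPM in MMS on only 7 UMIs and 27.4 CPM in Control on 117, with overlapping intervals. Arterial-like cells had 8.09 CPM in MMS on 7 UMIs and 2.59 CPM in Control on 4 (1.64, interval -0.33 to 3.86), the same sign as the venular ratio with an interval that held 0. Mural-like cells had 45.4 CPM in MMS (43.1% of cells) and 65.2 CPM in Control (44.4% of cells), a log2 ratio of -0.52 (interval -0.89 to -0.15). In fibroblast-like cells Angpt2 was near 0, with 1.51 CPM in MMS, where 1 cell held 28 of 54 UMIs, and 1.32 CPM in Control.

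**Figure D3:**
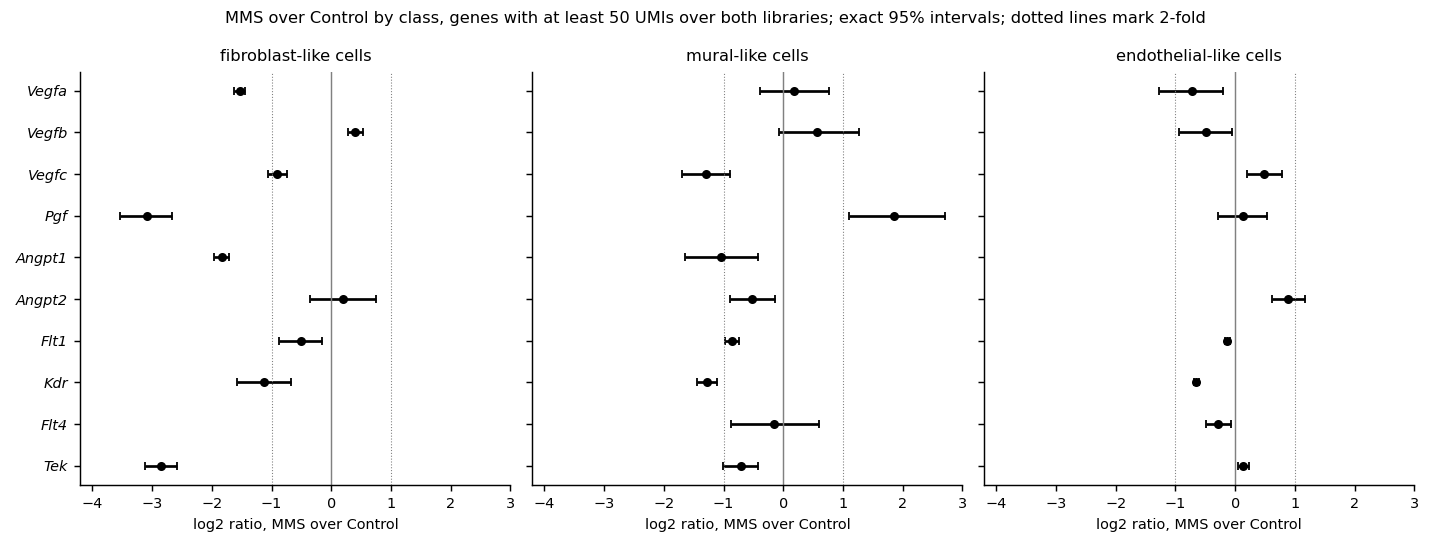
Log2 ratio of MMS over Control for each gene in fibroblast-like, mural-like and endothelial-like cells, with exact 95% intervals that cover counting error only; the dotted lines mark 2-fold. Pgf lies at -3.09 in fibroblast-like and at 1.86 in mural-like cells, while in endothelial-like cells, with all sub-clusters in, the highest ratio is 0.89 for Angpt2.

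Of the 10 genes, 9 had at least 50 UMIs over both libraries in fibroblast-like cells, and 5 of these (Vegfa, Pgf, Angpt1, Tek and Kdr) were past 2-fold, all lower in MMS. With lining and sublining weighted equally, which leaves out the unnamed sub-clusters, Vegfa (-0.97) and Angpt1 (-0.94) were no longer past it. Over all genes tested in that class, 14.6% were past 2-fold and 7.66% were past it and lower. In endothelial-like cells 9 were tested and 0 were past 2-fold, against 8.36% of all genes. Leaving out sub-clusters led by genes of other classes put endothelial Angpt2 past 2-fold, at 1.07 (interval 0.77 to 1.37). That value rests on 240 MMS UMIs and keeps the MMS cell that held 59 of them. In mural-like cells all 10 were tested, with 1 higher (Pgf) and 3 lower (Vegfc, Angpt1 and Kdr) past 2-fold. Over all genes there, 9% were past 2-fold, 5.11% higher and 3.89% lower. In macrophage or monocyte-like cells 4 were tested and 1 was higher, against 4.5% of all genes in either direction and 2.22% higher. That gene was Vegfa, at the low levels given above. In cell cycle-like cells, a class that pools cell types, 5 were tested and 3 (Flt1, Kdr and Tek) were higher, against 24.6% of all genes in either direction and 16.7% higher. The 10 endothelial markers summed to 1975 CPM in MMS and 79.5 CPM in Control cells of that class. The median log2 ratio over all genes lay between -0.045 and 0.043 in the fibroblast-like, endothelial-like, mural-like and macrophage or monocyte-like cells. Fibroblast Kdr, with 2.08% of cells in MMS and 2.44% in Control, was at or below the share in macrophage or monocyte-like cells (2.73% and 2.75%, median depths 14602 and 12655 UMIs). Of its 57 MMS and 166 Control UMIs, 17 and 49 remained without the sub-clusters led by genes of other classes. These include a sub-cluster with Cldn5, Flt1 and Kdr among its leading genes. The source of the fibroblast Kdr UMIs was not tested.

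Kdr (chr5:75932827-75978458, minus strand), the main signalling receptor of Vegfa, was detected in nearly every endothelial-like cell, 93.9% in MMS and 94.0% in Control. Its level was 848 CPM in MMS (5429 UMIs) and 1331 CPM in Control (10996 UMIs), a log2 ratio of -0.65 (interval -0.70 to -0.60). The ratio moved with the kind of vessel. Capillary-like cells, 12.7% of endothelial-like cells in MMS (90 cells) and 51.3% in Control (1006 cells), had 1529 CPM in MMS and 1477 CPM in Control (0.050, interval -0.083 to 0.18). Venular-like cells, 40.7% in MMS (287 cells) and 6.63% in Control (130 cells), had 695 CPM in MMS and 853 CPM in Control (-0.30, interval -0.41 to -0.19). Arterial-like cells had 821 CPM in MMS and 1069 CPM in Control (-0.38, interval -0.51 to -0.25). Of the 3 sub-classes, capillary-like cells had the highest Kdr in both libraries, and there the difference was within counting error. With the 3 sub-classes weighted equally its ratio was -0.16.

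Flt1 (chr5:147561604-147726011, minus strand), the high-affinity trap for Vegfa and Pgf, was found in 96.3% of MMS and 93.6% of Control endothelial-like cells. Its level was 1362 CPM in MMS (8718 UMIs) and 1493 CPM in Control (12327 UMIs), a log2 ratio of -0.13 (interval -0.17 to -0.092). The sub-classes had ratios of both signs. Capillary-like cells had 1759 CPM in MMS and 1424 CPM in Control (0.30, interval 0.18 to 0.43), and arterial-like cells 1982 CPM in MMS and 1677 CPM in Control (0.24, interval 0.15 to 0.33). Venular-like cells had 1280 CPM in MMS and 1625 CPM in Control (-0.34, interval -0.42 to -0.26). With equal weights the ratio was 0.087, so the class as a whole gave Flt1 no settled direction.

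**Figure D4:**
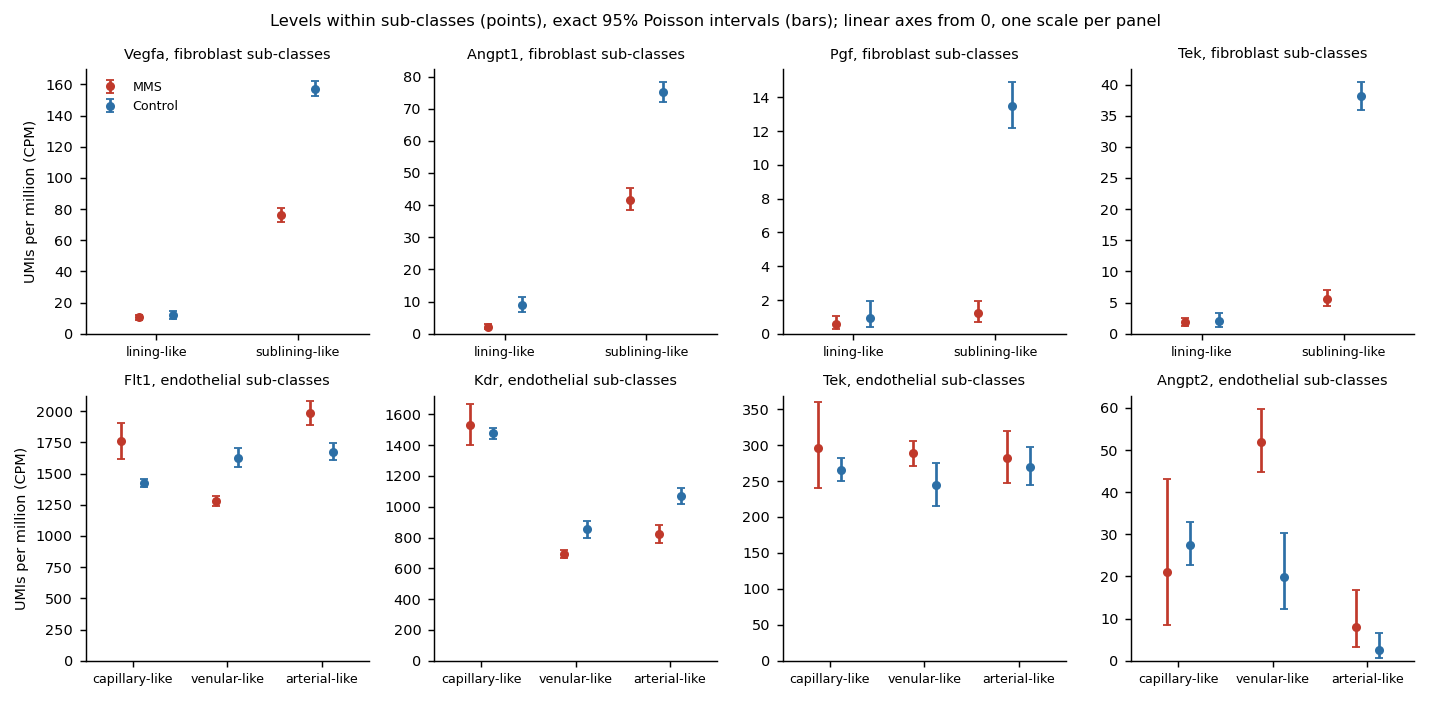
Levels in CPM with exact 95% Poisson intervals: Vegfa, Angpt1, Pgf and Tek in lining-like and sublining-like fibroblasts (upper row), and Flt1, Kdr, Tek and Angpt2 in capillary-like, venular-like and arterial-like endothelial cells (lower row), MMS in red left of Control in blue. Kdr stands at 1529 CPM in MMS and 1477 CPM in Control capillary-like cells, and sublining Tek at 5.60 CPM in MMS and 38.1 CPM in Control.

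Tek (chr4:94739289-94874976, plus strand), the receptor of both angiopoietins, differed little between the libraries in the endothelium. Endothelial-like cells had 285 CPM in MMS (1823 UMIs) and 259 CPM in Control (2139 UMIs), a log2 ratio of 0.14 (interval 0.046 to 0.23). The ratio was 0.16 in capillary-like, 0.24 in venular-like and 0.063 in arterial-like cells, and the levels of the 3 sub-classes lay between 282 and 296 CPM in MMS and between 244 and 270 CPM in Control. The share of cells with a Tek UMI was 78.8% in MMS and 58.5% in Control. At an equal depth of 2000 UMIs per cell it was 44.3% in MMS and 40.0% in Control.

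Another store of Tek lay outside the vessels, in the sublining-like fibroblasts of the Control library. Fibroblast-like cells gave 5.5% of all Tek UMIs in MMS and 34.9% in Control. Their level was 3.65 CPM in MMS (130 UMIs, 6.38% of cells) and 26.2 CPM in Control (1249 UMIs, 21.8% of cells), a log2 ratio of -2.84 (interval -3.12 to -2.58). The sublining had 5.60 CPM in MMS and 38.1 CPM in Control (-2.77), while the lining had 38 UMIs in 613 MMS and 15 UMIs in 351 Control cells (-0.089, interval -0.99 to 0.88). The 10 endothelial markers summed to 78.6 CPM in MMS and 79.9 CPM in Control fibroblast-like cells, nearly the same, against 9970 and 10638 CPM in endothelial-like cells. Leaving out 3 sub-clusters led by genes of other classes gave -2.94.

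In the Control library, most of the fibroblast Tek sat in the sub-cluster led by Pi16, Stmn4, Tek and Dpp4. Of these, Pi16 and Dpp4 are known from adventitial fibroblasts. The sub-cluster held 781 of the 1249 Control UMIs in 559 cells and 19 of the 130 MMS UMIs in 11 cells. Most of the fibroblast Tek of the MMS library thus lay outside it. The level inside it was 131 CPM in MMS (interval 78.6 to 204) and 118 CPM in Control (interval 110 to 127). These cells were 0.846% of fibroblast-like cells in MMS and 17.5% in Control, while the intervals of their Tek levels overlapped. Tek is among the genes that lead the sub-cluster, so the height of Tek there is a description.

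Flt4 (chr11:49609263-49652739, plus strand), the Vegfc receptor, stood at 48.1 CPM in MMS (308 UMIs) and 58.6 CPM in Control (484 UMIs) endothelial-like cells, a log2 ratio of -0.28 (interval -0.50 to -0.075). Its share of cells was 29.6% in MMS and 17.7% in Control, and 9.63% in MMS and 11.4% in Control after thinning, so the order of the raw shares went with depth. Cells with 2 or more of 4 lymphatic markers numbered 0 in MMS and 3 in Control, and those 3 held 81 of the 484 Control UMIs. The marker Prox1 alone was found in 5 MMS and 4 Control endothelial-like cells, so some cells outside that count carried a single lymphatic marker. No sub-cluster was lymphatic-like. In venular-like cells it stood at 41.7 CPM in MMS and 124 CPM in Control (-1.58), where 1 Control cell held 57 of 132 UMIs, and the ratio without the top cells was -0.86. Capillary-like cells had 77.8 CPM in MMS on 26 UMIs and 45.4 CPM in Control on 194 (0.78, interval 0.13 to 1.37).

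Past 2-fold, 0 of 7 genes tested were called in capillary-like cells (9.48% of all genes there), 1 higher (Angpt2) and 1 lower (Flt4) of 7 in venular-like cells (5.29% of all genes, 3.91% higher and 1.38% lower) and 0 of 5 in arterial-like cells (4.05%). In the fibroblasts, 3 of 8 (Vegfa, Pgf and Tek) were lower in the sublining, against 13% of all genes in either direction and 5.48% lower. In the lining 1 of 5 (Angpt1) was lower, against 6.46% in either direction and 3.7% lower.

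The receptors were also counted in mural-like cells, beside endothelial markers. Flt1 stood at 407 CPM in MMS and 739 CPM in Control mural-like cells, and Kdr at 169 CPM in MMS and 410 CPM in Control. These mural levels were 29.8% (Flt1) and 20.0% (Kdr) of the endothelial level in MMS, and 49.5% and 30.8% in Control. All 10 endothelial markers were present in the mural-like cells, at 21.0 to 37.3% of their endothelial level in MMS and 38.6 to 61.4% in Control. Flt1 lay within these ranges in both libraries, as did Tek (23.9% in MMS and 43.0% in Control). Kdr lay just below them in both, and Flt4 stood at 30.6% in MMS and 28.1% in Control, below the range in Control. The part of endothelial RNA in the mural receptor values was not tested. Angpt2 and Vegfc lay above the ranges, with Angpt2 at 106% of its endothelial level in MMS and 283% in Control, and Vegfc at 93.0% in MMS and 321% in Control. Arterial-like cells alone had Vegfc at 85.6 CPM in MMS and 87.4 CPM in Control, above the mural level. Endothelial marker UMIs were found in 169 of 181 MMS and 137 of 144 Control mural-like cells. The remaining 12 MMS and 7 Control cells held 1 Angpt2 UMI in each library and 0 Vegfc UMIs. The part of endothelial RNA in these 2 genes was not tested either. Mural Angpt1 stood at 14.5 CPM in MMS and 29.6 CPM in Control (-1.04, interval -1.65 to -0.42), against 5 and 10 UMIs in the whole endothelial-like class.

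Joint detection of the receptors in endothelial-like cells was close to what their single shares give. Flt1 and Kdr were both detected in 91.1% of cells in MMS and 88.5% in Control, and at 2000 UMIs per cell in 68.8% in MMS and 77.4% in Control. Kdr and Tek were both detected in 76.1% of cells in MMS and 56.2% in Control, and at equal depth in 34.2% in MMS and 35.3% in Control. Independent detection would give 34.6% in MMS and 35.1% in Control for that pair at equal depth, and 68.3% in MMS and 77.0% in Control for Flt1 with Kdr. The order of the libraries at full depth did not hold at equal depth for either pair. Thinning left out 62 MMS and 395 Control cells that were shallower.

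The other genes of the pathway were read from 6 lists that hold none of the 10 genes. Of the co-receptors and partners, 4 were tested in endothelial-like cells and 0 were past 2-fold, against 8.36% of all genes in either direction. The semaphorin and VEGF co-receptor Nrp1 stood at 645 CPM in MMS and 874 CPM in Control (-0.44), its homologue Nrp2 at 395 CPM in MMS and 270 CPM in Control (0.55), and Tie1, which pairs with Tek, at 452 CPM in MMS and 396 CPM in Control (0.19). The median over the 4 was 0.089, against 0.033 over all genes of the class.

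Among 12 tip cell and VEGF-response genes tested in endothelial-like cells, 5 were higher and 2 lower past 2-fold, with a median of 0.68; over all genes of the class 8.36% were past 2-fold in either direction and the median was 0.033. Plvap, which builds the diaphragms of leaky venules and fenestrae, stood at 1450 CPM in MMS and 327 CPM in Control (2.15). It is also high in venules, and within venular-like cells it stood at 2240 CPM in MMS and 2088 CPM in Control (0.10). Esm1, a secreted product of tip cells, had a ratio of 2.06 in the class and -0.12 in venular-like cells. The venular-like cells include a sub-cluster with Col13a1, Esm1 and Plvap among its leading genes. It held 87 of the 287 MMS and 69 of the 130 Control venular-like cells. Venular-like ratios thus compare unlike mixes of sub-clusters, and the part of that mix in them was not tested. Mcam, an adhesion molecule, kept a ratio of 1.58 in venular-like and 1.45 in arterial-like cells (class 2.15). The basement membrane genes Nid2 (1.98) and Lamb1 (1.70) were the other higher members. Nid2 had 1.32 in venular-like, 1.31 in arterial-like and 0.35 in capillary-like cells. Lamb1 had 0.65, 0.61 and 0.27 in the same sub-classes, none of them past 2-fold. The lower members were Adm (-1.65) and the netrin receptor Unc5b (-1.39), given for the whole class only. Both are among the leading genes of capillary-like sub-clusters. That of Adm held 314 Control and 17 MMS cells, and that of Unc5b 253 Control and 52 MMS cells. The part of cell makeup in these 2 ratios was not tested.

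Of 11 genes of the Tek and Foxo1 axis and of quiet endothelium, 0 were higher and 1 was lower past 2-fold, with a median of -0.14. That gene was Cldn5, a protein of tight junctions, at 1046 CPM in MMS and 2519 CPM in Control (-1.27). Its ratio was -0.67 in capillary-like, -0.73 in venular-like and -0.27 in arterial-like cells. Of 8 angiogenesis inhibitors 3 were higher and 0 lower, with a median of 0.72. Col18a1, the precursor of endostatin, stood at 261 CPM in MMS and 22.8 CPM in Control (3.52), and its ratio was 2.39 in venular-like and 1.89 in arterial-like cells. The others were Thbs2 (1.46) and Vash1, which was only just past 2-fold, at 9.69 CPM in MMS and 4.84 CPM in Control. For Thbs2 and Vash1 only values of the whole class are given. Of the 5 other endothelial growth factors tested, 0 were past 2-fold. Beside these counts, 8.36% of all genes of the class were past 2-fold in either direction.

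The hypoxia pathway was read because Vegfa is one of its textbook targets. In fibroblast-like cells, where Vegfa was lower in MMS, 2 of 13 tested genes were higher (the glucose transporter Slc2a1, 1.54, and Pdk1, 1.48) and 1 was lower (Ndrg1, -1.16), with a median of 0.19 and 7 of the 13 above 0. Over all genes of the class 14.6% were past 2-fold in either direction. Hif1a stood at 226 CPM in MMS and 131 CPM in Control (0.78) there. In endothelial-like cells 3 of 13 were higher (Hif1a at 227 CPM in MMS and 69.5 CPM in Control, 1.71; Ankrd37, 1.58; Slc2a1, 1.13) and 1 was lower (P4ha1, -1.04), against 8.36% of all genes in either direction. The ratios of Hif1a and Slc2a1 were smaller within each of the 3 sub-classes than in the whole class. Hif1a had 0.94 in venular-like, 0.30 in capillary-like and 1.29 in arterial-like cells. Slc2a1 had 0.87, 0.48 and 0.68 there, and Ankrd37 had -0.12 in venular-like cells, with 7 MMS and 1 Control UMIs in arterial-like cells. In macrophage or monocyte-like cells 4 of 14 were higher and 0 lower, led by Slc2a1 (1.63), against 4.5% of all genes in either direction.

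**Figure D5:**
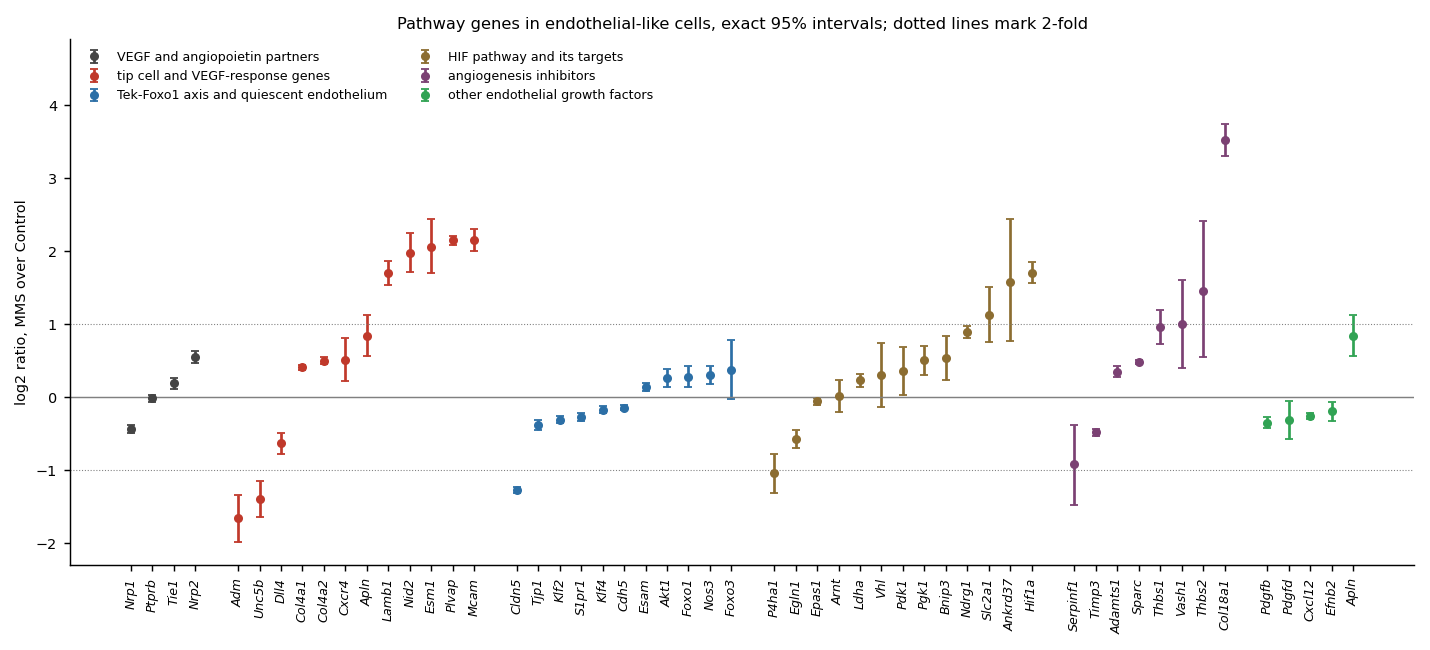
Log2 ratio of MMS over Control in endothelial-like cells for each tested gene of the 6 pathway lists, with the dotted lines at 2-fold. Col18a1 stands highest at 3.52, followed by Mcam and Plvap at 2.15, and Adm lowest at -1.65.

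In fibroblast-like cells the partner list had 1 higher and 1 lower gene of 9. Ccbe1, which helps to process Vegfc, stood at 30.9 CPM in MMS and 11.8 CPM in Control (1.39), and Angpt4, a further ligand of Tek, at 4.99 CPM in MMS and 18.5 CPM in Control (-1.89). The related growth factor Vegfd was at 48.3 CPM in MMS and 29.96 CPM in Control (0.69, interval 0.59 to 0.79), against the sign of Vegfa, Vegfc and Pgf there. Of 10 inhibitors 1 was higher, Thbs1 (2.11), and 4 were lower, among them Timp3 at 81.6 CPM in MMS and 403 CPM in Control (-2.31) and Serpinf1 at 619 CPM in MMS and 1804 CPM in Control (-1.54). Of 9 other growth factors 3 were higher (Apln 1.95, Sema3a 1.69 and Efnb2 1.41) and 2 lower (Fgf2 -1.74 and Ang -1.60). Over all genes of the class 14.6% were past 2-fold in either direction and 7.66% were past it and lower. Lining-like cells were 47.1% of the class in MMS and 10.97% in Control. A sub-cluster with Angpt4 among its leading genes held 464 Control and 6 MMS cells. The part of cell makeup in the ratios of these lists was not tested.

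The genes whose levels were most like those of the 10 were found over 14 profiles, each the sum of 1 class in 1 library with at least 50 cells, by Pearson's r of log2(CPM + 1) over 12318 genes. Profiles of the same library share its depth, and the values are descriptions. Kdr was most like Tnfsf10 and C1qtnf9 (r = 0.993 for both), and Flt1 most like Podxl and Dll4 (0.992 for both). Flt4 was most like Nova2 (0.991) and Tek like Prex2 (0.980). Angpt1 was most like Rarres2 (0.981), Vegfc like Armcx1 (0.981) and Angpt2 like Bcam (0.971). Vegfa, Vegfb and Pgf had looser company, with Dipk1b (0.917), Dhrs7b (0.919) and Kazn (0.918).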

How the data were processed

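The 2 deposited matrices, 1 per library, hold whole-number UMI counts; per the file headers the authors used Cell Ranger 5.0.0. The submitters' processing notes give mm10 and version 2.0.0 of that tool. Filters were a minimum of 1000 UMIs and 500 genes and a maximum of 10% mitochondrial UMIs. In each library scrublet called doublets (106 of 3871 MMS and 184 of 7075 Control cells), which were removed. Cells were clustered in scanpy 1.11.5 with 2000 variable genes without the 10 described, 30 components, 15 neighbours and Leiden resolution 1.0 (igraph 0.11.9), with no batch integration. A cluster took a class name with a marker score of at least 1.5, a lead of 0.3 and 3 markers detected; these thresholds were set after the clusters were seen. Sub-classes needed a score of 1.0. The genes, lists and rules were chosen with earlier results of these data known.

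Counts of a class in 1 library were added up and divided by their total (CPM), with exact Poisson intervals. Shares have Clopper-Pearson intervals and ratios exact conditional binomial ones, computed with scipy 1.17.1. Genes with at least 50 UMIs over both libraries were counted as past 2-fold or not, with no model or test. A count of 0 allows up to 3 counts. UMIs are PCR-corrected molecules, and free RNA was not removed. The ratio and interval calculation was tested on simulated sums: for fibroblast-like cells 101 of 101 genes changed 4-fold came out past 2-fold, and 8 of 13220 unchanged ones. The sums were drawn with counting error only, so they check the calculation and give no rate of false calls in these libraries. The rule for genes named beside the 10 was the 3 with the highest r, of which 1 or 2 are given, list members past 2-fold in the class described, and markers. Partners under 2-fold, Hif1a in fibroblasts, and the sub-clusters were chosen after their values were seen. Gene positions are from GENCODE M21 (GRCm38), which held 32235 of the 32285 identifiers.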

Additional observations from a re-analysis of the deposited data

Results flagged for a closer look

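Several genes had log2 ratios of MMS over Control of opposite sign in different classes, each with an interval that did not hold 0; with 1 library per group these differences between classes were not tested. Vegfa was at 1.01 in macrophage or monocyte-like cells (34 UMIs in MMS and 32 in Control), against -0.73 in endothelial-like and -1.53 in fibroblast-like cells. The macrophage shares of cells with a UMI were at or below those of T or NK-like cells, which rest on few cells. Endothelial Vegfa was also found in a small share of cells, with a UMI in 35 of 706 MMS and 89 of 1961 Control cells. Its ratio was 0.96 in capillary-like cells (9 MMS and 59 Control UMIs), with an interval that held 0 (-0.23 to 1.98). It was -2.05 in venular-like cells (11 MMS and 13 Control UMIs, interval -3.35 to -0.78). In arterial-like cells it was 2.25 (16 MMS and 6 Control UMIs, interval 0.82 to 3.89). The venular-like and arterial-like values rest on fewer than the 50 UMIs needed for a gene to be counted. Pgf was at 1.86 in mural-like cells and -3.09 in fibroblast-like cells. Flt1 was at 5.86 in cell cycle-like cells (510 UMIs in MMS and 4 in Control) and -0.86 in mural-like cells. Kdr was at 4.68 in cell cycle-like cells (338 UMIs in MMS and 6 in Control), against -0.65 in endothelial-like, -1.12 in fibroblast-like and -1.27 in mural-like cells. The cell cycle-like class, 78 MMS and 56 Control cells, pools cell types, and its 10 endothelial markers summed to 1975 CPM in MMS and 79.5 CPM in Control.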

How the results depend on the processing

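Depth, class makeup and the single library per group limit these values. No paired analysis was possible because each group has 1 library, and for the same reason no replicate could be left out. The class of highest level of each gene was taken among the 5 classes with at least 50 cells in each library. Adipocyte-like cells, with 33 Control cells, were not among them. For the ratio of each gene in that class, 109 of 119 alternatives stayed within the counting interval and 10 moved outside it. Thinning every cell to 2000 UMIs gave -1.42 for Vegfa and -1.54 for Angpt1 in fibroblast-like cells, and 0.0701 for Flt1 and -0.49 for Kdr in endothelial-like cells. Leiden resolution 0.5 gave -0.23 for Flt1 and -0.74 for Kdr, and resolution 2.0 gave -0.0613 for Flt1. Without sub-clusters led by genes of other classes, an alternative chosen after seeing the data, Kdr was -0.77. For Vegfb in cell cycle-like cells (-0.30) a mitochondrial limit of 5% gave -1.02 and one of 20% gave -1.20; thinned, it gave no value. The cause of these shifts was not tested.

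Weighting sub-classes equally changes the class makeup by construction and leaves out the unnamed sub-clusters. In endothelial-like cells it gave 0.69 for Vegfa (-0.73 by cells), 0.12 for Vegfc, -4.18 for Pgf (0.13 by cells; 6 MMS and 34 Control UMIs, 26 of the Control ones in 1 venular-like cell, and without the unnamed sub-cluster that holds most endothelial Pgf), 0.0874 for Flt1 and -0.16 for Kdr. In fibroblast-like cells it gave -0.97 for Vegfa, -0.12 for Vegfc, -0.94 for Angpt1, 0.79 for Angpt2 (0.20 by cells, and -0.55 without the top cell of each library) and -2.42 for Tek. Joint detection after thinning was 68.8% in MMS and 77.4% in Control for Flt1 with Kdr, 38.7% and 35.4% for Flt1 with Tek, and 34.2% and 35.3% for Kdr with Tek. All 16 list counts stayed within 1.5 times.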

Other observations

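The pathway lists were also read outside the endothelium, with no test. In mural-like cells the tip cell list had 2 higher and 1 lower gene past 2-fold of 10 tested (median 0.59), where 5.11% of all genes were past 2-fold and higher and 3.89% lower. Apln, a secreted peptide of sprouting vessels, had 112 UMIs in MMS and 5 in Control (3.30, interval 2.03 to 4.95), and Esm1 had 56 UMIs in MMS and 2 in Control (3.62, interval 1.70 to 6.70). Sema3a, a secreted guidance cue that binds Nrp1, had 196 UMIs in MMS and 5 in Control (4.11, interval 2.86 to 5.74). It was 1 of 2 higher genes of 7 growth factors, beside Apln. Sema3a is also among the leading genes of a fibroblast-like cluster led by the lining gene Prg4, and both genes were higher in MMS fibroblast-like cells (Sema3a 1.69, Apln 1.95). The 8 markers of lining fibroblasts summed to 24738 CPM in MMS and 1634 CPM in Control mural-like cells, and their part in these ratios was not tested. Dll4, the Notch ligand of tip cells and arteries, was the lower gene, at 30.7 CPM in MMS and 78.4 CPM in Control (-1.35). The partner list had 1 higher (Vegfd, 1.67) and 1 lower gene (Ptprb, -1.18) of 6, the quiescence list 0 higher and 2 lower (Klf2, -1.08, and Cldn5, -1.52) of 11, and the inhibitors 1 higher (Col18a1, 1.78) of 7. Of 13 hypoxia genes 2 were higher (Pdk1, 1.02, and Ankrd37, 1.01) and 1 was lower (P4ha1, -1.08). Ptprb and Cldn5 are endothelial markers, which all stood lower relative to the endothelial level in the MMS than in the Control mural-like cells.

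In macrophage or monocyte-like cells 3 of 7 inhibitors were higher and 2 lower, where 4.5% of all genes were past 2-fold in either direction. Thbs1, which blocks endothelial growth, stood at 19.3 CPM in MMS and 2.84 CPM in Control (2.76), Col18a1 at 7.06 CPM in MMS and 1.20 CPM in Control (2.56), and Adamts1 at 8.25 CPM in MMS and 3.41 CPM in Control (1.27). Serpinf1 (-1.21) and Timp3 (-1.12) were the lower genes, with the same sign as in fibroblast-like cells, where both are far more abundant. The growth factor Hgf was the higher gene of 6, with 103 UMIs in MMS and 95 in Control (1.04). The partner list had 1 lower gene of 3 (Ptprb), the tip cell list 1 lower of 5 (Kcne3), and the quiescence list 0 of 10. In fibroblast-like cells 3 of 10 tip cell genes were higher (Apln, 1.95, Mcam, 1.56, and Lamb1, 1.23), where 14.6% of all genes were past 2-fold in either direction. Of 10 quiescence genes S1pr1 was higher (1.55), and the transcription factors Klf2 (-1.41) and Klf4 (-1.74) were lower.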
